A study of Mus musculus with 12 samples.

Results

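The genes described here are the amyloid precursor protein gene App and its homologs Aplp1 and Aplp2, the secretase genes Bace1, Psen2, Ncstn, Aph1a and Adam10, and the adaptor gene Apba1. They were chosen by symbol, and each had 1 probeset among the 19505 gene symbols measured, so that 9 genes of 19505 are followed over 12 arrays. The olfactory bulb (OB) of 12 female mice was profiled, 1 Affymetrix Mouse Clariom S array per mouse, in 4 groups of 3, which were Tg2576 mice aged 2 or 6 months and their WT littermates at the same ages. Tg2576 mice carry a human APP transgene with the Swedish mutation under the prion promoter, and all mice were on a C57BL/6/SJL background. The labels give 2 months for the younger mice, and a table in the study's methods lists them as 3 months. The array is a mouse array, and whether the mouse App probeset also detects the human transcript was not tested.

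App is a membrane protein that is cut along competing routes. In the amyloidogenic route, the beta-secretase Bace1 sheds the ectodomain and gamma-secretase then releases amyloid-beta from the membrane. In the other route, an alpha-secretase, in neurons mainly Adam10, cuts inside the amyloid-beta sequence. Gamma-secretase is a complex of a catalytic presenilin such as Psen2, nicastrin (Ncstn), an Aph1 protein and Psenen. Apba1, also called Mint1, binds the cytoplasmic tail of App at synapses.

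Nicastrin was the gene of the 9 whose genotype difference changed most with age. Its signal in Tg2576 mice lay 0.37 below that of WT mice on the log2 scale at 2 months and 0.26 above it at 6 months (SE 0.13 each, 3 mice per group). At each age the Tg2576 and WT arrays did not overlap, as for 9.96% of all probesets at 2 months and 14.8% at 6 months. The change of 0.62 between ages (adjusted p = 0.842) passed the unadjusted limit for a call, as 0.779% of all probesets did, and Ncstn was the only gene of the 9 called in any of the 6 comparisons. That call ended in 3 of 12 fits without 1 array and with 4 of the 6 covariates tried, while the value in these fits stayed between 0.52 and 0.71. App itself differed by less than 0.1 in every comparison. Adam10 lay 0.25 higher in Tg2576 mice at 6 months, which did not pass the limit for a call. Values are log2 intensities normalized by RMA. A probeset was called changed at an unadjusted limma p under 0.01, the limit of the study's methods, while the p-values printed are limma's after Benjamini-Hochberg adjustment over all 22206 gene probesets. A log2 value of 1 probeset cannot be set against that of another.

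The start regions of Ncstn, App and Adam10 are shown because the results turn on these genes, and were read from RefSeq for mouse build GRCm38.p6. Each run is the 250 bases before the start given by its promoter entry, written 5′ to 3′ on the gene's own strand. The RefSeq gene spans start at 172082789 for Ncstn, 85175255 for App and 70678944 for Adam10. The App window thus lies inside the span of its gene, and the Ncstn and Adam10 windows run partly into theirs. Capitals mark 3 short motifs searched on both strands, the GC box GGGCGG, the E-box CACGTG and the CCAAT box CCAAT.
Ncstn, chr1:172082750-172082999, minus strand: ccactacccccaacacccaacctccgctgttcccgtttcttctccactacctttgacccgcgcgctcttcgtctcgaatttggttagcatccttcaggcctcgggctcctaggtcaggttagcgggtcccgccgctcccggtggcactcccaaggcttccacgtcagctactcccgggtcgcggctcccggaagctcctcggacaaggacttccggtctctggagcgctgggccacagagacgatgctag
App, chr16:85173708-85173957, minus strand: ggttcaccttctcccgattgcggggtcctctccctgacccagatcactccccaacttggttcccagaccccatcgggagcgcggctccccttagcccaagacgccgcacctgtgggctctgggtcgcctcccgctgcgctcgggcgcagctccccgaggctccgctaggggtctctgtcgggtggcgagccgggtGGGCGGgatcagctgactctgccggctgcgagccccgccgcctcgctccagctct
Adam10, chr9:70678732-70678981, plus strand: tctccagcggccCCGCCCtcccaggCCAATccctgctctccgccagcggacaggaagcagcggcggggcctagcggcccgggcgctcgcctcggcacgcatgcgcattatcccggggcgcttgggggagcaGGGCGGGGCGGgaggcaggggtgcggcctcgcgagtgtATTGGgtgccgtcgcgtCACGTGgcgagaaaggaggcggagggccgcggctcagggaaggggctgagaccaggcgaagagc

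The App window held 1 GC box, the Adam10 window 3 GC boxes (2 of them partly overlapping), 1 E-box and 2 CCAAT boxes, and the Ncstn window none of these. Of 32851 mouse promoters of the same length, 32.7% held a GC box, 6.02% an E-box and 33.8% a CCAAT box. None of the 3 windows held TATAAA on either strand, which 12.4% of all promoters did. Their GC content was 63.2% for Ncstn, 70.8% for App and 74% for Adam10, beside a median of 52.4% over all promoters. An entry was found for 8 of the 9 genes. A match describes the letters of the window and shows no binding.

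All 12 arrays had a like overall signal, with medians between 8.243 and 8.274 and correlations between arrays of 0.9777 to 0.9952. The hybridization controls lay between 11.26 and 11.66 on 10 arrays and stood apart in WT 6 months replicate 2 (12.52) and replicate 3 (12.06). The defining genes of the OB were measured, and several marker lists differed with the genotype. The mean of 6 mitral and tufted cell markers was 10.31 to 10.47 in Tg2576 and 10.18 to 10.36 in WT mice at 2 months, and 10.36 to 10.43 against 10.02 to 10.26 at 6 months, where the groups did not overlap and 5 of the 6 genes lay above 0. The mean of 10 interneuron markers was 10.68 to 10.74 against 10.56 to 10.67 at 2 months, without overlap, and 10.75 to 10.79 against 10.71 to 10.82 at 6 months. Of these 10 genes, 7 lay above 0 at 2 months and 4 at 6 months. Of 6 markers of all neurons, 3 lay above 0 at 2 months and 1 at 6 months, with medians of -0.0273 and -0.0677. All 7 olfactory sensory neuron markers lay above 0 at both ages, and their mean at 6 months was 9.341 to 9.612 in Tg2576 against 9.005 to 9.253 in WT mice (9.128 to 10.25 against 9.267 to 9.578 at 2 months). At 2 months only Tg2576 replicate 3 (10.25) lay above the WT arrays, while replicates 1 and 2 gave 9.13 and 9.33. Leptomeningeal markers differed with the genotype at 2 months, with all 16 genes above 0 and 3 of them called higher (Ogn, Omd and Igf2), as 0.639% of all probesets were. Their array mean was 8.952 to 9.436 in Tg2576 mice against 8.392 to 8.82 in WT mice. At 6 months their array mean lay between 8.811 and 8.855 in Tg2576 and 8.444 and 8.856 in WT mice. The mean of 8 oligodendrocyte markers ran from 8.913 to 9.303 in Tg2576 and from 8.833 to 8.852 in WT mice at 6 months. Their part in the results below was not tested beyond the fits named there. In bulk tissue, fewer cells of a type and less RNA per cell cannot be told apart. Arrays are numbered in the labels 1 group after another, and an effect of that order cannot be told apart from the groups. The 23 background probesets reached 8.992, and only Psen2 of the 9 genes, with a mean of 8.75, lay within their range. Of the other genes named below, Timp3, Bace2, Scn4b and Ngfr lay within it on all 12 arrays and Cdh1 on 11. That range, which began at 3.396, also held the median of every array. Bace2 and Scn4b had means below these medians, while Timp3, Ngfr, Cdh1 and Psen2 had means above them.

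At 2 months 0 of the 9 genes were called between Tg2576 and WT mice, where 1.22% of all 22206 gene probesets were (271 probesets). At 6 months 0 of the 9 genes were called, where 2.03% of all probesets were. At an unadjusted p under 0.05, 1 gene passed at each age, Ncstn at 2 months and Adam10 at 6 months, where 6.32% and 8.61% of all probesets did. At both ages 6 of the 9 genes were above 0 and 3 below, with a median log2 difference of 0.0253 at 2 months and 0.0681 at 6 months, beside 51.8% of all probesets above 0 at each age. Groups did not overlap for 2 genes at 2 months, Aplp2 and Ncstn, both lower in Tg2576 mice, where 9.96% of all probesets had such groups, 4.73% with lower values in Tg2576 mice. At 6 months they did not overlap for 3 genes, App, Ncstn and Adam10, all higher in Tg2576 mice, where 14.8% of all probesets had such groups, 7.56% with higher values in Tg2576 mice. In limma 0 probesets passed an adjusted p of 0.05 in the genotype comparisons, while 1403 at 2 months and 1911 at 6 months had an unadjusted p under 0.05. To be called within 1 age, with 3 mice per group, a gene of this set needed a log2 difference of 0.251 (App) to 0.424 (Psen2). These limits use limma's SE, which draws each spread toward that of all probesets, while App's own SD within groups was 0.0336.

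**Figure D1:**
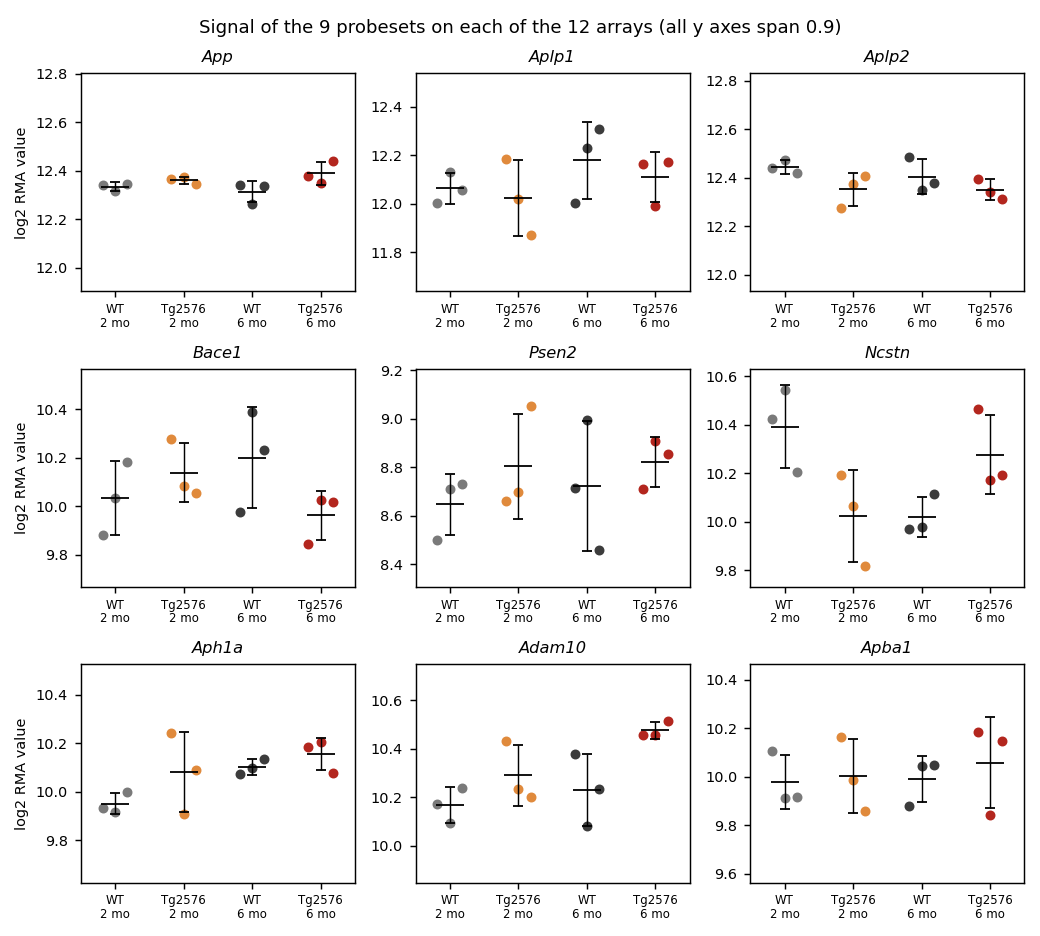
Log2 RMA values (y axes, each spanning 0.9) of the 9 genes by group (x axes), with 1 point per mouse, the group mean as a horizontal line and its SD over 3 mice as a bar. Ncstn lies at 10.39 in WT and 10.02 in Tg2576 mice at 2 months and at 10.02 and 10.28 at 6 months, while the 12 values of App span 0.176.

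App, the precursor of amyloid-beta, gave log2 values of 12.36, 12.37 and 12.34 in Tg2576 and 12.34, 12.32 and 12.35 in WT mice at 2 months. At 6 months the values were 12.38, 12.35 and 12.44 in Tg2576 and 12.34, 12.26 and 12.34 in WT mice. The lowest Tg2576 array thus fell below the highest WT array at 2 months, and all Tg2576 arrays lay above all WT arrays at 6 months. The difference was 0.03 (SE 0.08, adjusted p = 0.991) at 2 months and 0.08 (SE 0.08, adjusted p = 0.841) at 6 months. Over both ages it was 0.05, with a 95% confidence interval of -0.08 to 0.18 in limma (adjusted p = 0.846). An exact two-sided permutation test over the 400 arrangements within ages gave p = 0.01 for the same value, where 0.005 is the smallest p this test allows. The interval from limma, which draws on the spread of all probesets, holds both a rise and a fall of this size. With the mitral and tufted cell markers as a covariate, added after the data were seen, the difference at 6 months was 0.03. App had a correlation of 0.77 with their mean over the 12 arrays, the highest among the marker lists. App was not called in any comparison.

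App was also one of the steadiest probesets on the array. Its values spanned 0.176 over all 12 arrays, and 0.203% of all gene probesets had a smaller range. Its SD within groups was 0.0336, against a median of 0.104 over the 500 probesets nearest to it in mean signal, of which 0.2% had a smaller SD. Aplp2 came next, with an SD of 0.0564 and a range of 0.212, which 0.856% of all probesets undercut. The spread of the other 7 genes lay between 0.0934 (Aph1a) and 0.191 (Psen2), and those of Psen2, Ncstn (0.157), Bace1 (0.151), Apba1 and Aplp1 were larger than the median of their like-bright probesets.

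**Figure D2:**
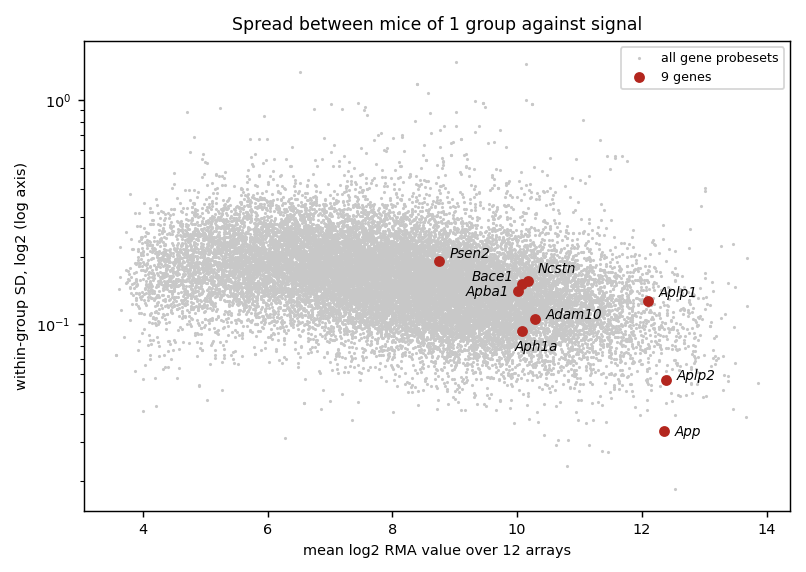
SD within groups (log axis) against the mean log2 RMA value over 12 arrays for all 22206 gene probesets in grey and the 9 genes in red. App, at a mean of 12.35 and an SD of 0.0336, and Aplp2, at 12.39 and 0.0564, lie at the lower edge of the cloud, and the other 7 genes within it.

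Aplp1 and Aplp2 encode homologs of App that secretases also cut and that lack the amyloid-beta sequence. Aplp2 gave 12.27, 12.37 and 12.41 in Tg2576 and 12.44, 12.47 and 12.42 in WT mice at 2 months, so that all Tg2576 arrays lay below the WT arrays. At 6 months the values, 12.40, 12.34 and 12.31 against 12.49, 12.35 and 12.38, overlapped. The difference of -0.09 (SE 0.09) at 2 months gave an adjusted limma p of 0.924, and that of -0.05 (SE 0.09) at 6 months one of 0.898. The mean over both ages was -0.07, with an adjusted limma p of 0.769 and an exact permutation p of 0.04. Aplp1 ranged from 11.87 to 12.31 over the 12 arrays with overlapping groups at both ages, and its differences were -0.04 (SE 0.11, adjusted p = 0.987) and -0.07 (SE 0.11, adjusted p = 0.898).

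Bace1, the beta-secretase of neurons, gave 10.28, 10.08 and 10.05 in Tg2576 and 9.88, 10.04 and 10.18 in WT mice at 2 months. At 6 months the values were 9.85, 10.03 and 10.02 in Tg2576 and 9.98, 10.39 and 10.23 in WT mice. The groups overlapped at both ages, and the 2 highest arrays of the older mice were WT replicates 2 and 3, which also had the highest hybridization controls. The differences were 0.10 (SE 0.12, adjusted p = 0.956) and -0.24 (SE 0.12, adjusted p = 0.62), and their change with age was -0.34 (SE 0.17, adjusted p = 0.842). Without these 2 WT arrays the difference at 6 months was -0.01, and with the hybridization controls as a covariate 0.00. The homolog Bace2, whose role in the brain is smaller, differed by 0.09 (SE 0.13, adjusted p = 0.969) at 2 months and 0.19 (SE 0.13, adjusted p = 0.718) at 6 months.

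**Figure D3:**
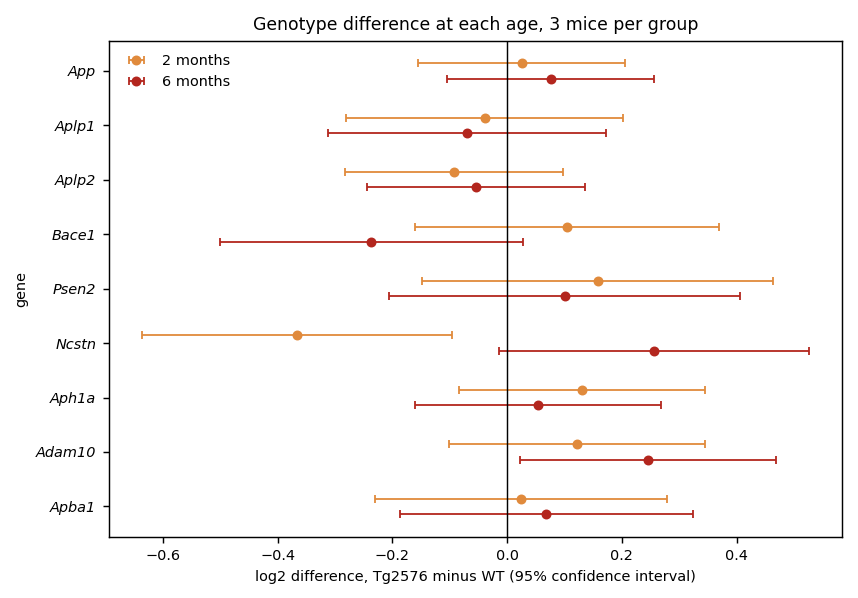
Log2 difference between Tg2576 and WT mice (x axis) for each of the 9 genes (y axis) at 2 months (orange) and 6 months (red), with limma's 95% confidence interval, 3 mice per group. The interval of Ncstn at 2 months (-0.64 to -0.10) and that of Adam10 at 6 months (0.02 to 0.47) leave out 0, and the other 16 cross it.

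Ncstn encodes nicastrin, the glycoprotein of gamma-secretase that takes part in binding its substrates. At 2 months it gave 10.19, 10.07 and 9.82 in Tg2576 and 10.42, 10.54 and 10.21 in WT mice, so that every Tg2576 array lay below every WT array, though 10.19 and 10.21 lay close together. At 6 months it gave 10.46, 10.17 and 10.19 in Tg2576 and 9.97, 9.98 and 10.12 in WT mice, with the order turned. Group means were 10.02 ± 0.19 and 10.39 ± 0.171 at 2 months and 10.28 ± 0.162 and 10.02 ± 0.0823 at 6 months (SD, n = 3 each).

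The Ncstn difference was -0.37 (SE 0.13, 95% interval -0.64 to -0.10, adjusted p = 0.762) at 2 months, a fold of 0.776, and 0.26 (SE 0.13, adjusted p = 0.596) at 6 months. The test of the change between ages gave 0.62 (SE 0.18, 95% interval 0.24 to 1.00, adjusted p = 0.842). Its unadjusted p was under the limit, and Ncstn was thus the 1 gene of 9 called in that comparison, in which 0.779% of all probesets were called, 0.261% in the same direction, and 0.243% had a smaller p. By age, Ncstn differed by -0.37 (SE 0.13, adjusted p = 0.294) at 6 against 2 months in WT mice, with groups that did not overlap. In Tg2576 mice it differed by 0.25 (SE 0.13, adjusted p = 0.893), with overlapping groups, and neither comparison was called. These comparisons share their arrays.

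The call for Ncstn in the change between ages held in 9 of 12 fits without 1 array, where the value ran from 0.52 to 0.71. It ended without Tg2576 2 months replicate 3 (0.52), Tg2576 6 months replicate 1 (0.53) or WT 2 months replicate 2 (0.55). With the leptomeningeal markers as a covariate the value was 0.55, not called, and the difference at 2 months was -0.25. With the oligodendrocyte markers it was 0.52, not called, and the difference at 6 months was 0.11. It was not called either with the interneuron markers (0.59, SE 0.205) or the hybridization controls (0.63, SE 0.211) as a covariate. Leaving out WT 6 months replicates 2 and 3 gave 0.67, not called either. It was called with the mitral and tufted cell markers (0.61) or the olfactory sensory neuron markers (0.67). The gene annotation of RefSeq places Copa, a coat protein gene of the opposite strand, over the start of Ncstn, and Copa, chosen after its values were seen, differed by -0.03 (SE 0.11) at 2 months and -0.24 (SE 0.11) at 6 months, neither called.

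**Figure D4:**
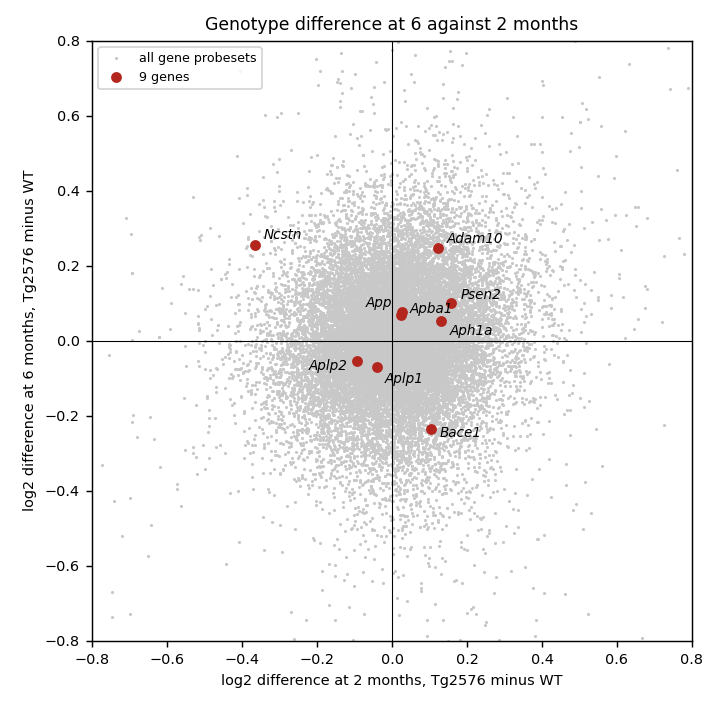
Log2 difference between Tg2576 and WT mice at 6 months (y axis) against that at 2 months (x axis), with 1 point per gene probeset in grey and the 9 genes in red. Both axes end at 0.8, which leaves out 81 probesets, and Ncstn (-0.37 at 2 months, 0.26 at 6 months) lies in the upper left, apart from the other 8 genes.

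Of the other gamma-secretase genes, Psen2, a catalytic presenilin, ranged from 8.46 to 9.05 over the 12 arrays. Its groups overlapped at both ages, with differences of 0.16 (SE 0.14, adjusted p = 0.916) and 0.10 (SE 0.14, adjusted p = 0.881). Aph1a, which scaffolds the complex, ranged from 9.91 to 10.24 and differed by 0.13 (SE 0.10, adjusted p = 0.894) and 0.05 (SE 0.10, adjusted p = 0.913). In WT mice its 6-month arrays, 10.07, 10.10 and 10.13, all lay above the 2-month arrays, whose mean was 9.95 ± 0.0428 (SD, n = 3), by a mean of 0.15 (SE 0.10, adjusted p = 0.552). Psenen, the smallest subunit, differed by 0.12 (SE 0.11, adjusted p = 0.908) at 2 months and 0.24 (SE 0.11, adjusted p = 0.565) at 6 months, where its groups did not overlap. The list of gamma-secretase genes had 6 of 6 measured members above 0 at 6 months (median 0.0976) and 4 of 6 at 2 months, and 0 of them were called at either age.

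Adam10, the main alpha-secretase of neurons, gave 10.43, 10.23 and 10.20 in Tg2576 and 10.17, 10.09 and 10.24 in WT mice at 2 months, with overlapping groups. At 6 months it gave 10.46, 10.46 and 10.52 in Tg2576 and 10.38, 10.08 and 10.23 in WT mice, so that every Tg2576 array lay above every WT array. The difference was 0.12 (SE 0.10, adjusted p = 0.906) at 2 months and 0.25 (SE 0.10, 95% interval 0.02 to 0.47, adjusted p = 0.546) at 6 months. Over both ages it was 0.18 (SE 0.07), with an adjusted limma p of 0.521 and an exact permutation p of 0.015. The value at 6 months was 0.10 without WT 6 months replicates 2 and 3, and 0.14 with the hybridization controls as a covariate. Adam10 had a correlation of 0.633 with the mean of the mitral and tufted cell markers over the 12 arrays, the highest among the marker lists. It had -0.6 with the endothelial and pericyte markers and 0.516 with the interneuron markers. The mitral and tufted cell mean did not overlap between genotypes at 6 months either. With that mean as a covariate, added after the data were seen, the value at 6 months was 0.13. In Tg2576 mice the 6-month arrays all lay above the 2-month arrays, by a mean of 0.19 (SE 0.10, adjusted p = 0.902).

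Adam17, which also sheds App, differed with the opposite sign. It gave 9.15, 9.20 and 9.21 in Tg2576 and 9.35, 9.35 and 9.39 in WT mice at 2 months. At 6 months it gave 9.01, 9.12 and 8.97 in Tg2576 and 9.22, 9.14 and 9.37 in WT mice. Tg2576 arrays lay below all WT arrays of their age at both ages. The differences were -0.18 (SE 0.09, adjusted p = 0.815) and -0.21 (SE 0.09, adjusted p = 0.564), and over both ages -0.19 (SE 0.07, adjusted p = 0.483), which was not called, though it was in 2 of 12 fits without 1 array (values between -0.22 and -0.164). Adam9, a further candidate alpha-secretase, differed by -0.13 (SE 0.11) at 2 months and 0.18 (SE 0.11) at 6 months, with a change between ages of 0.31 (SE 0.15, adjusted p = 0.842).

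Apba1 ranged from 9.84 to 10.18 over the 12 arrays. Its values were 10.16, 9.99 and 9.86 in Tg2576 and 10.11, 9.91 and 9.92 in WT mice at 2 months, and 10.18, 9.84 and 10.15 in Tg2576 and 9.88, 10.04 and 10.05 in WT mice at 6 months. Groups overlapped at both ages, with differences of 0.02 (SE 0.12, adjusted p = 0.995) and 0.07 (SE 0.12, adjusted p = 0.907). Its homolog Apba2 differed by -0.01 (SE 0.09, adjusted p = 1) and 0.05 (SE 0.09, adjusted p = 0.908).

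The exact permutation test over both ages was run for each of the 9 genes, and its p-values are unadjusted. Beside App (0.01), Adam10 (0.015) and Aplp2 (0.04), the exact p was 0.11 for Aph1a, 0.255 for Psen2, 0.425 for Aplp1, 0.53 for Bace1, 0.545 for Apba1 and 0.685 for Ncstn. In limma 0 of the 9 genes were called over both ages, where 2.04% of all probesets were, and the smallest adjusted limma p among the 9 was 0.521. Within 1 age, 3 mice against 3 cannot go below an exact p of 0.1.

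By age, 0 of the 9 genes were called in WT mice, where 3.42% of all probesets were, and 0 in Tg2576 mice, where 1.14% were. Groups did not overlap for 2 genes in WT mice, Ncstn lower and Aph1a higher at 6 months, where 13.4% of all probesets had such groups. In Tg2576 mice they did not overlap for Bace1, whose values were lower at 6 months (-0.18, SE 0.12, adjusted p = 0.921), and Adam10, where 14.2% of all probesets had such groups.

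Among the 102 other measured genes of App processing, from 111 listed, 1 was called higher (0.639% of all probesets were) and 0 lower in Tg2576 mice at 2 months, and 0 at 6 months or in the change between ages. Their median difference was 0.00161 at 2 months and 0.0514 at 6 months, where the medians over all probesets were 0.00603 and 0.00665. Over both ages 2 were called higher (1.17% of all probesets were) and 0 lower. The gene called at 2 months was Timp3, an extracellular inhibitor of Adam proteases and metalloproteinases, which was called over both ages too, and the other was Cdh1, E-cadherin, a substrate of Adam10 and gamma-secretase.

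Timp3, whose signal lay within the range of the background probesets, gave 8.65, 8.64 and 8.88 in Tg2576 and 8.12, 8.33 and 8.47 in WT mice at 2 months, so that every Tg2576 array lay above every WT array. The difference was 0.42 (SE 0.11, adjusted p = 0.762) at 2 months and 0.09 (SE 0.11, adjusted p = 0.856) at 6 months, and 0.26 (SE 0.08, adjusted p = 0.467) over both ages. With the leptomeningeal markers as a covariate, the 2-month value was 0.18 and that over both ages 0.0871, neither called. The call at 2 months ended without Tg2576 2 months replicate 3 (0.340) or WT 2 months replicate 1 (0.325). Over both ages its call held in 4 of 12 fits without 1 array (Tg2576 2 months replicate 1 or 2, WT 2 months replicate 3 or WT 6 months replicate 2 left out), with values from 0.209 to 0.299. Cdh1 was higher over both ages by 0.29 (SE 0.10, adjusted p = 0.483), by 0.0998 with the leptomeningeal covariate and by 0.198 with the hybridization covariate, neither called. Its call held in 4 of 12 fits without 1 array (Tg2576 2 months replicate 1, WT 2 months replicate 2 or 3, or WT 6 months replicate 1 left out), with values from 0.229 to 0.328, and it ended without WT 6 months replicates 2 and 3 (0.226).

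**Figure D5:**
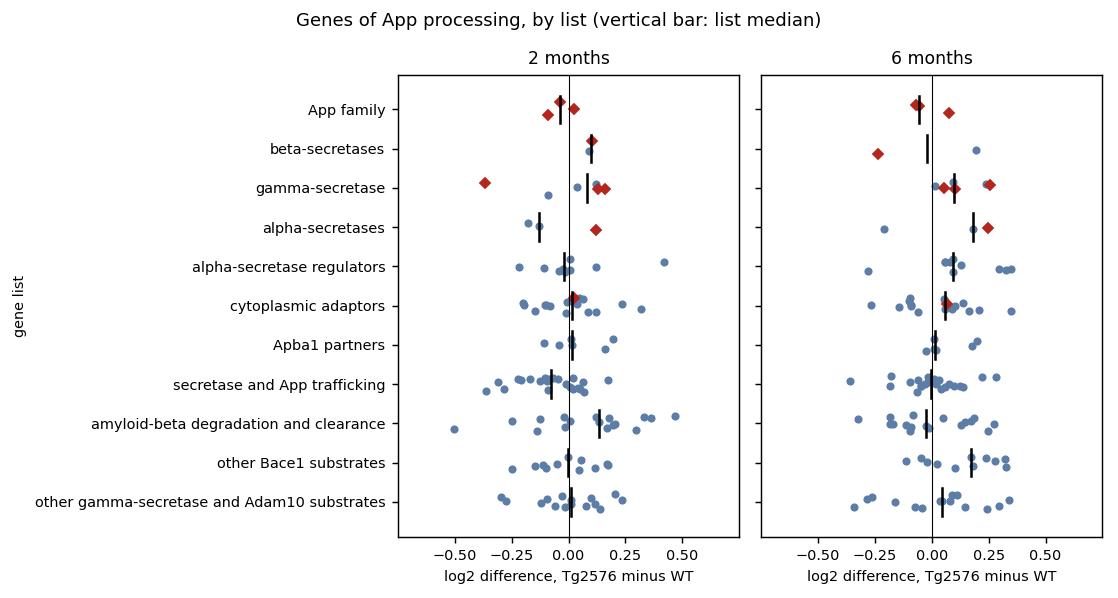
Log2 difference between Tg2576 and WT mice at 2 months (left) and 6 months (right), with 1 point per measured gene of each list of App processing (y axis), the 9 genes as red diamonds and the list median as a vertical bar. The 6 gamma-secretase genes all lie above 0 at 6 months, and Timp3 (0.42) is the rightmost alpha-secretase regulator at 2 months.

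For each gene, the 3 genes most alike over the 12 arrays were found by Pearson correlation of log2 values among 10066 symbols above the median signal. The arrays share their groups, and values are given as descriptions. The genes were picked by these same values, so like differences between groups follow in part from the choice. Ncstn ran most alike with Max (0.934), a partner of the Myc proteins, Diaph1 (0.909), an actin nucleator, and Cntn1 (0.882), a neuronal adhesion protein. Like Ncstn, Max was below 0 at 2 months (-0.17, SE 0.10) and above 0 at 6 months (0.10, SE 0.10). App ran most alike with Ppia (0.856), Ndrg2 (0.842) and Pole4 (0.838), and Adam10 with Ndrg3 (0.923), Ubl7 (0.912) and Derl2 (0.905). Bace1 ran most alike with Caprin1 (0.974), an RNA-binding protein, which differed by 0.06 (SE 0.12) and -0.20 (SE 0.12) at the 2 ages. The genes most alike to the others were Fbxl16 (0.885) for Aplp1, Opa3 (0.857) for Aplp2, Metrn (0.929) for Psen2, Slc48a1 (0.887) for Aph1a and Cdc7 (0.867) for Apba1. Among the 36 pairs of the 9 genes, the highest correlation was that of App and Adam10 (0.771, and 0.648 after group means were removed). After that removal, Aplp1 had higher values with Apba1 (0.724) and Ncstn (0.653), and Aplp2 and Bace1 had -0.846.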

How the data were processed

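OB RNA of 12 mice was measured on Affymetrix Mouse Clariom S arrays. The authors extracted RNA with the Maxwell simplyRNA kit, amplified 1 ng with the WT Pico kit and deposited RMA values, which are log2 intensities per probeset after background correction and quantile normalization. No RMA version was given in the sources used here. All 12 value columns were used, and 0 were left out. The supplementary tables of the authors' own comparisons were not used.

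The 22206 gene probesets were tested on the log2 scale with limma 3.58.1 in R 4.3.3, with 1 mean per group, and 6923 control probesets were left out. Symbols came from the platform annotation: 19572 probesets carry 1 symbol, and the other 2634, including any with more than 1 symbol, were left without one. Calls were made at an unadjusted p under 0.01, beside fold limits of 1.3 and 0.7 and Benjamini-Hochberg adjustment over all probesets. Single genes were also tested by an exact permutation test within ages. The limma p-values set each difference against the spread between mice, which limma draws toward that of all probesets. The number of arrays limits the precision. The fit was tested on simulated data. Plots were drawn with matplotlib 3.10.9.

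The genes, the pathway and marker lists and the rule for named genes were chosen with earlier results of these data known. The rule names the 9 genes, every listed gene called in a genotype comparison, the measured homologs and the 3 genes most alike to each. Alternatives were the 6 arrays compared alone, a trended and robust prior, weights for arrays, a filter at the 25th percentile of signal, median centring, cyclic loess, the mean of all probesets of a symbol, the replicate number as block (statmod 1.5.0), covariates (hybridization controls, leptomeningeal or oligodendrocyte markers), leaving out arrays, and other limits. Without WT 6 months replicates 2 and 3, the spread of the 1 WT array left at 6 months was taken from the other groups. The same fits for listed genes outside the 9, and covariates from the mitral and tufted cell, interneuron and olfactory sensory neuron markers, were added after the data were seen.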

Additional observations from a re-analysis of the deposited data

Results flagged for a closer look

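The genotype difference of Ncstn changed between 6 and 2 months by 0.622 on the log2 scale (SE 0.18, adjusted p = 0.842), from -0.37 at 2 months to 0.26 at 6 months. It is listed here because the test of the change between ages passed the unadjusted limit of 0.01 in limma. All 3 Tg2576 mice lay below the WT mice at 2 months, where 10.19 and 10.21 were close, and above them at 6 months. Of all probesets, 4.73% had such lower groups at 2 months and 7.56% such higher groups at 6 months. The call ended with the hybridization, leptomeningeal, oligodendrocyte or interneuron covariate, without WT 6 months replicates 2 and 3, and in 3 of 12 fits without 1 array. In all these fits the value stayed between 0.52 and 0.71.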

How the results depend on the processing

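In the main setting 0 of the 9 genes were called at 2 months, at 6 months, over both ages, by age in WT and by age in Tg2576 mice, and 1, Ncstn, in the change between ages. Counts at 2 months and by age in WT mice rose to 1 (Ncstn) with a trended robust prior, array weights, the filter on dim probesets, cyclic loess or a p limit of 0.05, at 2 months also with the oligodendrocyte covariate, and by age in WT mice also with the olfactory sensory neuron covariate (to 1). At a p limit of 0.05 the counts at 6 months and over both ages were 1. The count in the change between ages fell to 0 with the hybridization, leptomeningeal, oligodendrocyte or interneuron covariate, without WT 6 months replicates 2 and 3, and at an adjusted p under 0.05. Leaving out each array in turn gave counts of 0 to 1 at 2 months, 0 to 1 in the change between ages, 0 to 1 by age in WT mice, and 0 to 0 at 6 months, over both ages and by age in Tg2576 mice. Of the values of single genes under these settings, 16 became called, 8 ended as calls (Ncstn in every case) and 1416 stayed on their side of the limit. No called value changed sign. With the replicate number as a block, the counts of the 9 genes stayed at 0, 0, 1, 0, 0 and 0, and those over all probesets went from 271 to 290 at 2 months and from 759 to 694 by age in WT mice. Same-numbered arrays did not deviate together (correlations of -0.268 to 0.175, with 5 of 12 arrays nearest to their own number), so the numbers were not taken as pairs. The cause of these moves was not tested. Among alternatives for values that were not called, Bace1 at 6 months went from -0.24 to 0.00 with the hybridization covariate. For Psen2, Timp3, Bace2, Scn4b, Ngfr and Cdh1, signal within the range of the background probesets may limit what could be seen, which was not tested.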

Other observations

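By age, the share of other genes of App processing that were called was near that of all probesets. Of the 102 measured genes outside the 9, 3 were called higher and 1 lower at 6 than at 2 months in WT mice, where 2.09% of all probesets were higher and 1.33% lower, and 0 in Tg2576 mice, where 1.14% of all were called, and the median was -0.0384 in WT mice, beside -0.00704 over all probesets. These genes are named after their values were seen, except Timp3, which rose in WT mice by 0.38 (SE 0.11, adjusted p = 0.262). Lrpap1, a chaperone of lipoprotein receptors that bind App, rose in WT mice by 0.54 (SE 0.13, adjusted p = 0.243) and differed by 0.00 (SE 0.13) in Tg2576 mice. Its genotype difference was 0.17 (SE 0.13) at 2 months and -0.36 (SE 0.13, adjusted p = 0.516) at 6 months, and the change between ages was -0.53 (SE 0.19, adjusted p = 0.842), which did not pass the limit for a call. Without 1 array, the change between ages ran from -0.627 to -0.387 and was called in 3 of 12 fits, and the 6-month difference ran from -0.454 to -0.215 and was called in 1. The 6-month difference was also called with the leptomeningeal covariate (-0.443). Scn4b, a sodium channel subunit cut by Bace1, fell in WT mice (-0.45, SE 0.12, adjusted p = 0.243), and its value in Tg2576 mice was -0.17 (SE 0.12, adjusted p = 0.924). Ngfr, the neurotrophin receptor that gamma-secretase cuts, rose in WT mice by 0.30 (SE 0.10, adjusted p = 0.284), with 0.00 (SE 0.10) in Tg2576 mice. All 12 values of Timp3, Scn4b (7.19 to 7.979) and Ngfr (8.197 to 8.659) lay within the range of the background probesets. These comparisons share arrays with those between genotypes. Without WT 6 months replicates 2 and 3, which had the high hybridization controls, none of the 4 genes was called in WT mice, with values of 0.264 for Timp3, 0.392 for Lrpap1, -0.175 for Scn4b and 0.254 for Ngfr. Without 1 array at a time, the call held in 12 of 12 fits for Lrpap1 (0.472 to 0.624), 9 for Scn4b (-0.583 to -0.357), 8 for Timp3 (0.288 to 0.467) and 3 for Ngfr (0.245 to 0.339). For Scn4b it ended without WT 2 months replicate 2 or WT 6 months replicate 2 or 3, and for Timp3 without these or WT 2 months replicate 1. For Ngfr it held only without Tg2576 2 months replicate 1, Tg2576 6 months replicate 1 or WT 6 months replicate 3.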
